A study of Mus musculus with 4 samples.

Results

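The genes described here are the receptors for cytokines that support IgA-producing cells, together with the signal transducer Stat3 and its feedback inhibitor Socs3: Il10ra, Il10rb, Tgfbr1, Tgfbr2, Il6ra, Il6st, Il5ra, Il21r, Stat3 and Socs3. They were chosen by gene symbol, and they are 10 of 18193 genes named on the array and account for 26 of its 45037 probe sets. A probe set is a group of short probes that together read 1 transcript or transcript end. IgA-positive cells of the small intestine of untreated, wild-type, 9-week-old female Balb/c mice had been sorted, according to whether they carried the integrin chain CD11b (Itgam) on their surface, into CD11b+ IgA+ and CD11b- IgA+ cells. Each fraction was measured on 2 Affymetrix arrays. Of these, 1 was prepared from 1 µg of total RNA by One-Cycle labelling and 1 from 0.1 µg by 3' IVT Express labelling. Kit, RNA amount and replicate changed together, so what is called a kit difference below cannot be told apart from the others. The labels do not say how many mice or sorts stand behind an array. Every p-value therefore rests only on the spread between these arrays, which may be technical, with a variance partly shared across probe sets.

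Cytokine receptors of this group act in pairs of chains. IL-10 binds the chain encoded by Il10ra and recruits the shared chain encoded by Il10rb, IL-6 binds the chain of Il6ra and signals through gp130, the product of Il6st, and the chain of Il21r pairs with the common gamma chain. All of these activate JAK kinases and STAT3, which switches on Socs3, an inhibitor that closes the loop. TGF-beta uses a different kind of receptor: the kinase encoded by Tgfbr2 binds the ligand and activates the kinase encoded by Tgfbr1, which phosphorylates SMAD proteins. In the gut, TGF-beta directs switching to IgA, while IL-5, IL-6, IL-10 and IL-21 are known to support the differentiation, secretion or survival of IgA-producing cells.

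The genes of the sort markers, CD11b and IgA, were read on the arrays as labelled. Itgam, the gene of CD11b, read 28.3 and 15.8 on the CD11b-negative arrays and 189 and 109 on the CD11b-positive ones. Igha, the gene of the IgA heavy chain, read 12633 and 11703 against 11703 and 11010. Of 14 listed plasma cell markers, 13 were analysed and above the low-signal limit. Xbp1 read between 8435 and 9033 on all arrays. Sdc1 was lower in both CD11b-positive arrays, at 5626 and 5941 against 3472 and 4155. Signals are quantile-normalized unless said otherwise, that is, all 4 arrays were given the same distribution of values. The trimmed means of the deposited signals were 48.6 and 70.05 on the CD11b-negative arrays and 73.8 and 90.3 on the CD11b-positive ones. For the beta-actin controls, the signal at the 3' end divided by that at the 5' end, a quotient that grows as RNA gets shorter, was 1.90 and 1.84 on the CD11b-negative arrays against 1.43 and 1.61 on the CD11b-positive ones. For the Gapdh controls the same quotient was 0.685 and 0.704 against 0.682 and 0.710. The part of RNA length in the differences below was not tested.

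No probe set of the 10 genes differed between the fractions in the limma model of the fractions alone. Of the 26 probe sets, 21, from 8 genes, had a mean signal above the low-signal limit of 9.51 and were tested among 27022. This mean, called log-scale mean below, was taken on log2(signal + 3) over the 4 arrays and turned back into a signal. In that model 0 of the 21 had an adjusted p under 0.05 (0% of all probe sets tested) and 0 had an unadjusted p under 0.05 (5.13% of all). With the labelling kit as a block, which compares the fractions within each kit, 4 of the 21 were lower in CD11b-positive cells (2.4% of all tested were lower, and 4.57% passed in either direction) and 0 were higher (2.17%). The calls of Il10rb and Stat3, but not that of Socs3, were lost on the deposited, median-centred and trimmed-mean scales. Without the trend in the variance prior all 4 were lost (limma adjusted p from 0.467 to 0.509 with the block). The 4 belong to 3 genes: Il10rb, Stat3 with 2 probe sets, and Socs3. CD11b-positive cells read lower with both kits for 12 of the 21 probe sets (28.9% of all) and higher with both kits for 5 (31.8%), while 4 differed in direction between the kits. In 9 of the 21 the 2 fractions were fully separated (33.8% of all), with the CD11b-positive pair above in 4 and below in 5. The median log2 difference was -0.26 over the 21 and 0.02 over all probe sets tested.

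**Figure D1:**
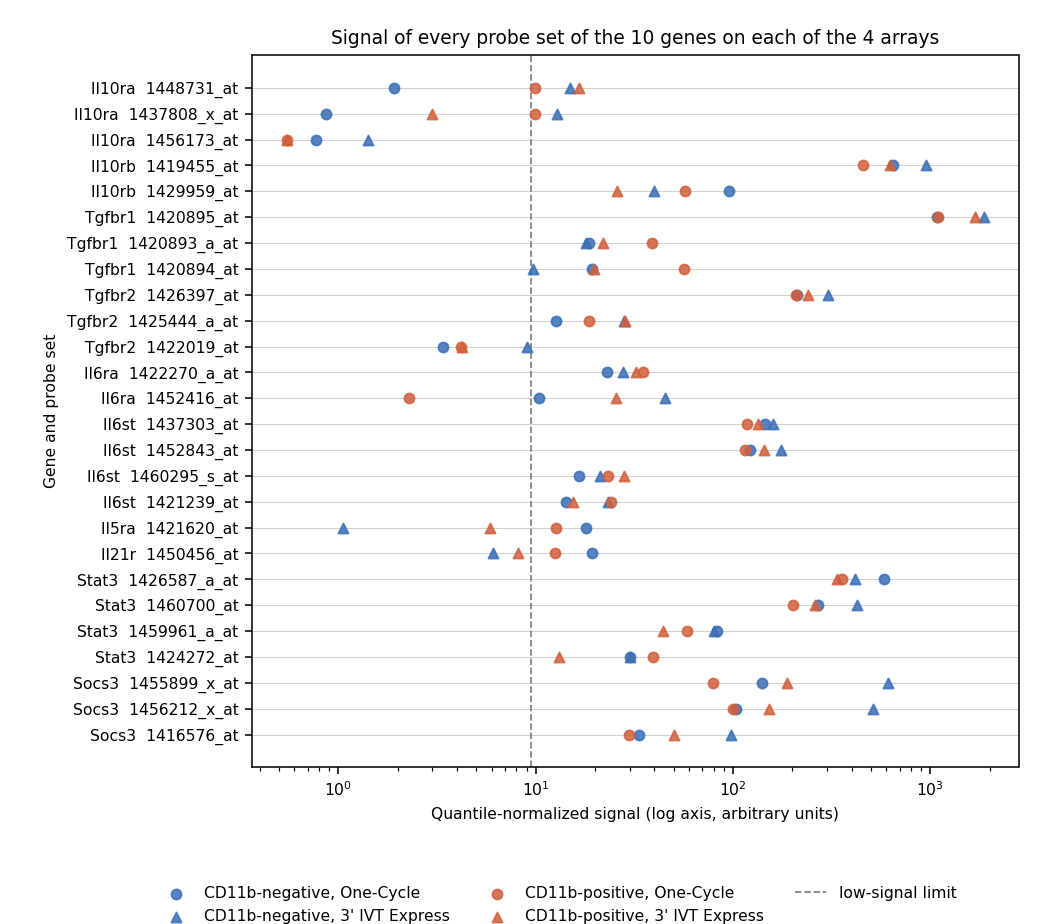
Quantile-normalized signal (log axis) of the 26 probe sets of the 10 genes, 1 row each, on the 4 arrays; colour gives the CD11b fraction, the marker shape the labelling kit, and the dashed line the low-signal limit of 9.51. All 3 Il10ra probe sets and the Il5ra probe set have means under the limit, and the triangles of the 3' IVT Express kit stand to the right of the circles for all 3 Socs3 probe sets.

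The IL-10 receptor was uneven in its read-out: the ligand-binding chain had log-scale means under the low-signal limit, while the shared chain was well above it and read lower in CD11b-positive cells. Il10ra has 3 probe sets, and none was tested. The brightest of them, 1448731_at, read 1.93 and 14.9 on the CD11b-negative arrays and 9.89 and 16.5 on the CD11b-positive ones. Both 3' IVT Express arrays were above both One-Cycle arrays there, and the fractions overlapped. The probe set 1437808_x_at read 0.863 and 12.9 against 9.93 and 2.99, turning direction between the kits, and 1456173_at stayed between 0.549 and 1.42. No statement about Il10ra regulation can be drawn at this signal.

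Il10rb, whose chain also serves IL-22 and interferon-lambda receptors, read 645 and 947 on the CD11b-negative arrays and 456 and 626 on the CD11b-positive ones with 1419455_at. Both CD11b-positive arrays were below both CD11b-negative arrays, as for 15.9% of all probe sets tested. The means were 796 ± 214 and 541 ± 120 (SD, n = 2 each). The log2 difference was -0.55 ± 0.26 (SE), or 1.46-fold lower, with -0.50 in the One-Cycle and -0.60 in the 3' IVT Express pair. This SE, like those below, comes from limma without the block. With the block it was 0.11. By limma the adjusted p was 0.966 without and 0.00777 with the kit block. A second probe set, 1429959_at, went the same way at lower signal, from 95.5 to 57.2 with the One-Cycle kit and from 39.9 to 25.96 with the 3' IVT Express kit, but its adjusted p was 0.207 with the block. The lower reading of Il10rb was relative to the bulk of the array. As deposited, 1419455_at read 404 and 469 with the One-Cycle kit and 937 and 841 with the 3' IVT Express kit (CD11b-negative first). Its log2 difference was then 0.03, against a median of 0.39 over all probe sets, which leaves -0.36. With the block, limma then gave an adjusted p of 0.348, and 0.0762 after median centring and 0.0781 with a common trimmed mean, so the call was lost under each of these scalings. Without 1 array the difference ran from -0.27 (without the CD11b-negative 3' IVT Express array) to -0.82 (without the CD11b-negative One-Cycle array). It was -0.32 without the CD11b-positive One-Cycle array. The fractions then no longer hold 1 array of each kit, so these values also contain the kit difference. In bulk RNA such as this, fewer cells of a type and less RNA per cell cannot be told apart.

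The TGF-beta receptor kinases showed no difference past the test. For Tgfbr1, the type I kinase, 1420895_at read 1085 and 1865 on the CD11b-negative arrays and 1089 and 1693 on the CD11b-positive ones. The kits separated these arrays and the fractions did not: the log2 difference was -0.07 ± 0.32 (SE), with 0.0058 and -0.14 within the kits, while the 3' IVT Express arrays were 1.63-fold above the One-Cycle arrays. Its sign turned to 0.09 on the deposited signals (relative to all probe sets), to 0.08 after median centring and to 0.06 with a common trimmed mean. The other Tgfbr1 probe sets, both of low signal, pointed up. With 1420894_at the signal was 19.3 and 9.66 on the CD11b-negative arrays against 56.3 and 19.7 on the CD11b-positive ones, a log2 difference of 1.13 ± 0.58 (SE) with 1.41 and 0.84 within the kits, and with 1420893_a_at it was 18.6 and 18.1 against 38.8 and 21.9. In both, each CD11b-positive array was above each CD11b-negative one (17.9% of all tested), and the limma adjusted p with the block was 0.127 and 0.482. The probe sets of Tgfbr1 thus disagree, by more than 1 log2 unit between the brightest and 1420894_at.

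Tgfbr2, the ligand-binding kinase, read 210 and 305 on the CD11b-negative arrays and 208 and 241 on the CD11b-positive ones with its brightest probe set, 1426397_at. The pair of One-Cycle arrays was level and the 3' IVT Express pair was apart, with log2 differences of -0.02 and -0.33. The mean was -0.18 ± 0.26 (SE; limma adjusted p = 0.982, and 0.630 with the block). The weaker 1425444_a_at read 12.7 and 28.04 against 18.6 and 28.5 (log2 difference 0.24), and 1422019_at was below the low-signal limit, between 3.41 and 9.08. Both kinases were therefore read in both fractions, and the difference between kits was larger than the difference between fractions on their brightest probe sets.

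No probe set of the IL-6 receptor chains passed the test. Il6st, the gene of gp130, read 145 and 159 on the CD11b-negative arrays and 119 and 135 on the CD11b-positive ones with 1437303_at. Here both CD11b-positive arrays were lower, by -0.28 and -0.23 log2 within the kits, but the difference of -0.26 ± 0.24 (SE) did not pass (limma adjusted p = 0.981, and 0.506 with the block). A probe set of similar signal, 1452843_at, read 123 and 174 against 116 and 143, with log2 differences of -0.08 and -0.28. The dimmer ones did not follow: 1460295_s_at stood higher, at 16.7 and 21.1 against 23.4 and 27.9, and 1421239_at read 14.3 and 23.3 against 24.1 and 15.5, with opposite directions in the kits.

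Il6ra, the IL-6-binding chain, had 2 probe sets that went opposite ways. With 1422270_a_at the signals were 22.9 and 27.6 on the CD11b-negative arrays and 34.9 and 32.1 on the CD11b-positive ones, higher in both CD11b-positive arrays (log2 difference 0.37 ± 0.33 SE). With 1452416_at they were 10.4 and 45.1 against 2.27 and 25.5, lower within both kits (-1.35 and -0.76) but with a kit difference of 2.14 log2 that only 0.359% of all probe sets tested equalled or exceeded in size. Neither passed (limma adjusted p = 0.655 and 0.279 with the block), and no direction can be given for the gene.

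The receptors of the remaining cytokines were at the limit of what the arrays could read. Il5ra, the IL-5-binding chain known from eosinophils and B-1 cells, had 1 probe set with signals of 18.04 and 1.05 on the CD11b-negative arrays and 12.7 and 5.88 on the CD11b-positive ones. The fractions overlapped, and the log-scale mean of 7.45 was below the low-signal limit. Il21r read 19.2 and 6.08 against 12.6 and 8.15. Its log-scale mean of 10.7 was just above the limit, and its log2 difference of -0.11 ± 0.61 (SE) turned direction between the kits. For both genes the One-Cycle arrays were above the 3' IVT Express arrays.

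Stat3, the transcription factor that the IL-6, IL-10 and IL-21 receptors share, read lower in CD11b-positive cells with its 3 brightest probe sets. With 1426587_a_at the signals were 581 and 413 on the CD11b-negative arrays and 359 and 336 on the CD11b-positive ones. With 1460700_at they were 271 and 425 against 202 and 259, and with 1459961_a_at 83.2 and 80.2 against 58.6 and 44.3. In each of the 3, both CD11b-positive arrays lay below both CD11b-negative arrays, as for 15.9% of all probe sets tested. The log2 differences were -0.49 ± 0.23, -0.56 ± 0.29 and -0.65 ± 0.28 (SE). These correspond to 1.41-fold, 1.48-fold and 1.57-fold lower signal, and the within-kit differences lay between -0.30 and -0.81. Without the block, limma gave adjusted p = 0.966, 0.973 and 0.966. With it, the values were 0.0425, 0.0300 and 0.142. The weakest probe set, 1424272_at, read 30.03 and 30.02 against 39.1 and 13.1 and turned direction between the kits. The probe sets share their RNA and are no replicates of each other. As with Il10rb, the difference is relative: as deposited, 1426587_a_at read 367 and 368 in the One-Cycle and 413 and 445 in the 3' IVT Express arrays (CD11b-negative first), and its log2 difference of 0.05 minus the median shift leaves -0.34. On the deposited signals, after median centring and with a common trimmed mean, the limma adjusted p with the block was 0.437, 0.148 and 0.158 for this probe set and 0.287, 0.0969 and 0.0996 for 1460700_at, so both calls were lost. Without the CD11b-negative One-Cycle array the difference of 1426587_a_at was -0.25, and that of 1460700_at was -0.88. Without the CD11b-negative 3' IVT Express array the latter was -0.24. As for Il10rb, such values from 3 arrays also contain the kit difference.

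**Figure D2:**
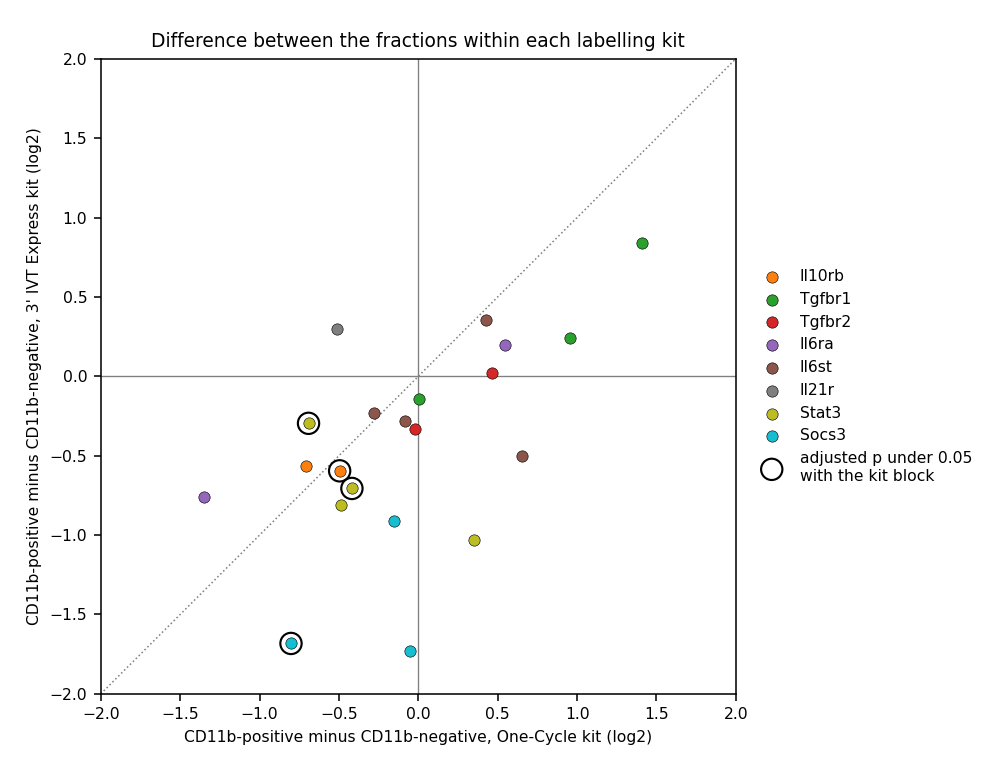
Difference between the fractions (log2, CD11b-positive minus CD11b-negative) in the One-Cycle pair (horizontal) and in the 3' IVT Express pair (vertical) for the 21 probe sets above the low-signal limit, coloured by gene; the dotted line marks equal differences, and circles mark the 4 with an adjusted p under 0.05 with the kit block. Of the 21 points, 12 lie below 0 on both axes, among them every circled one.

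Socs3, the STAT3-induced inhibitor of gp130 signalling, had the largest difference of the 8 tested genes on their brightest probe sets. With 1455899_x_at it read 140 and 613 on the CD11b-negative arrays and 79.3 and 189 on the CD11b-positive ones. Within each kit the CD11b-positive array was the lower one, yet the fractions overlapped, because the CD11b-positive 3' IVT Express array was above the CD11b-negative One-Cycle array. The means were 377 ± 334 and 134 ± 77.4 (SD, n = 2 each), and the log2 difference was -1.24 ± 0.72 (SE), or 2.37-fold lower, with -0.80 in the One-Cycle and -1.68 in the 3' IVT Express pair. The limma adjusted p was 0.974 without and 0.000690 with the block. The same probe set kept its sign on the deposited signals, where it read 97.2 against 84.5 and 614 against 244 (CD11b-negative first), and it passed with the block under each scaling tried (limma adjusted p from 5.52e-05 to 0.0117). Its suffix, _x_at, marks probes that may also bind other transcripts.

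The other Socs3 probe sets gave the same direction in the 3' IVT Express pair and almost no difference in the One-Cycle pair. With 1456212_x_at the signals were 104 and 513 on the CD11b-negative arrays and 99.9 and 153 on the CD11b-positive ones (-0.05 and -1.73 log2 within the kits). With 1416576_at they were 33.3 and 97.3 against 29.7 and 50.3 (-0.15 and -0.91). Neither passed with the block (limma adjusted p = 0.0611 and 0.361), but 1456212_x_at passed in 3 of the 10 blocked settings in which it was tested, with its lowest adjusted p, 0.0105, on the deposited signals. Without the CD11b-negative 3' IVT Express array the log2 difference was -0.19, 0.25 and 0.20 for the 3 probe sets, and without the CD11b-negative One-Cycle array it was -2.29, -2.03 and -1.26. With 3 arrays the fractions no longer hold 1 array of each kit, so these values also contain the kit difference. Between the kits, the 3' IVT Express arrays were 3.16-fold, 2.70-fold and 2.12-fold above the One-Cycle arrays. A kit difference as large in size as that of 1455899_x_at was seen for 1.41% of all probe sets tested, and a fraction difference as large for 2.2%. Over the 21 probe sets, both 3' IVT Express arrays were above both One-Cycle arrays in 8 (24.8% of all) and below them in 3 (22.8%). The kits differed at least 2-fold in 6 (8.52% of all), and 11 had a kit difference larger than the fraction difference (57.3% of all tested).

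The promoters of Socs3 and Stat3 are shown because these were 2 of the 3 genes with calls and STAT proteins are known to act on both genes. RefSeq promoters (build GRCm38.p6, from 250 bases before to 50 after the annotated start) were matched for 8 of the 10 genes, all but Il10ra and Il10rb. They were searched for TTCNNNGAA, the core of a STAT site, and for GTCTAGAC, a palindromic SMAD site. Both motifs equal their reverse complement, so both strands were read, and they cannot overlap. TTCNNNGAA was in 1 of the 8 genes, Socs3, where it starts at position -154 from the annotated start (in capitals), against 8.3% of 32851 promoters. GTCTAGAC was in 0 of the 8, against 0.213%. A match is a description of the letters and no evidence of binding. The Socs3 promoter is at chr11:117969317-117969616 and the Stat3 promoter at chr11:100939491-100939790, both on the minus strand, written 5′ to 3′ along the gene.
Socs3: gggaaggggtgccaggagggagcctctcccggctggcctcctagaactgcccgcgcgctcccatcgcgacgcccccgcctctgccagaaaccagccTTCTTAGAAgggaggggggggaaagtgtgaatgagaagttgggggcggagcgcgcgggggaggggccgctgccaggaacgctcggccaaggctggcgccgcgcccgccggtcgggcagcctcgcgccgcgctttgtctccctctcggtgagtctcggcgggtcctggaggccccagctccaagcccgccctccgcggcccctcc
Stat3: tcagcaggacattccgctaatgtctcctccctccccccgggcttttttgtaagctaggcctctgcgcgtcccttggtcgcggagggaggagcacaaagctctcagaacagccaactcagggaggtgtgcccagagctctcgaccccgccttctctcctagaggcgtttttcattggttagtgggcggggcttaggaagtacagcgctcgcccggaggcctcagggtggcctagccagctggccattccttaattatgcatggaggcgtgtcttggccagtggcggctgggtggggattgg

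Most ligands of these receptors were below the low-signal limit on the arrays. Of 7 ligand genes, 3 were above the low-signal limit and 0 passed with the block in either direction (over all genes, 3.04% were lower and 2.48% higher). Il10 read 40.7 and 102 on the CD11b-negative arrays and 46.5 and 40.1 on the CD11b-positive ones, which is 1 high array and 3 alike. Tgfb1, the main TGF-beta isoform of immune cells, read 151 and 62.6 against 130 and 53.1, with log2 differences of -0.21 and -0.23 within the kits. Tgfb3 read 15.2 and 28.3 against 21.7 and 32.4. Il5, Il6, Il21 and Tgfb2 were below the limit.

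Among 22 partner and related receptor chains, 14 of the 20 analysed were above the limit, 1 was lower and 0 higher with the block (over genes, 3.04% were lower and 2.48% higher), and the median log2 difference was -0.26, against 0.0027 over all 12645 genes. Here and below a gene is read by its brightest probe set. The gene that passed was Ifnar2, a chain of the type I interferon receptor, at 392 and 622 on the CD11b-negative arrays and 255 and 388 on the CD11b-positive ones (log2 difference -0.65; limma adjusted p = 0.00534 with the block). Ifnar1, the other chain of that receptor, read 408 and 402 against 313 and 336 and did not pass (0.207). Eng, a TGF-beta co-receptor, and Il20rb stood higher in both CD11b-positive arrays, by 0.93 and 0.99 log2, without passing. Such separation was seen for 17.9% of all probe sets tested. Both were of low signal: Eng read 11.7 and 13.8 against 18.7 and 38.0, and Il20rb 5.42 and 15.6 against 16.3 and 29.1. Of the 14, 7 read lower with both kits (30.5% of all genes) and 2 read higher with both (31.6%). Csf2rb, the shared beta chain that IL-5 receptors need, is outside the rule for named genes and is given for its role: it read 167 and 235 against 142 and 214.

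Of 10 listed kinases and STATs of the pathway, 9 were analysed and above the limit, and 2 of the 9 were lower with the block (3.04% of all genes). Jak2, a kinase used by gp130 and by the IL-5 receptor, read 239 and 333 on the CD11b-negative arrays and 170 and 207 on the CD11b-positive ones (log2 difference -0.58; limma adjusted p = 0.0317 with the block). Stat4 read 97.4 and 216 against 56.1 and 118 (-0.81; 0.0179). Tyk2, used by the IL-10 receptor, read 374 and 221 against 223 and 190 without passing, and Stat6 read 195 and 197 against 183 and 176. The median of the 9 was -0.12.

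Of 15 inhibitors of JAK-STAT signalling, all were above the limit, and only Socs2 passed with the block, at 584 and 1250 on the CD11b-negative arrays and 466 and 815 on the CD11b-positive ones (log2 difference -0.47; limma adjusted p = 0.0231). Over all genes, 3.04% were lower and 2.48% higher with the block. Of the 15, 6 read lower with both kits (30.5% of all genes) and 3 read higher with both (31.6%). The phosphatases Ptpn11, Ptpn1 and Ptpn6 read lower by 0.23 to 0.24 log2 without passing, and the median of the list was -0.03. Socs1 stood at 14.4 and 20.3 against 18.4 and 18.5. 

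In the SMAD pathway, 17 of the 18 genes analysed were above the limit and 10 read lower with both kits (30.5% of all genes). Another 4 read higher with both kits (31.6%). With the block, 1 was lower (3.04% of all genes) and 0 were higher (2.48%). Skil, an inhibitor of SMAD proteins that TGF-beta itself induces, passed with the block (2613 and 2743 on the CD11b-negative arrays against 1941 and 1710 on the CD11b-positive ones, log2 difference -0.55, limma adjusted p = 0.00150). The list median was -0.16. Zfyve9, an adaptor that presents SMADs to the receptor, read 32.1 and 25.2 against 10.1 and 16.2. Runx3, a partner of SMADs at the IgA switch region, read 133 and 154 against 105 and 85.2. Smad1, a SMAD of BMP signalling, read 34.7 and 44.2 against 22.03 and 27.04. For all 3, both CD11b-positive arrays were below both CD11b-negative arrays, as for 17.3% of genes, and none passed.

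Among genes that are known to respond to STAT3, 5 were lower with the block (3.04% of all genes). Of the 20 genes, 19 were above the limit, 12 read lower with both kits (30.5% of all genes), 1 read higher with both (31.6%) and 0 were higher with the block. The 5 were Junb, Fos, Nfil3, Cebpb and Pim1. Junb, a subunit of AP-1, read 586 and 585 on the CD11b-negative arrays and 262 and 218 on the CD11b-positive ones (log2 difference -1.28; limma adjusted p = 2.07e-05 with the block). Fos, its AP-1 partner, read 7099 and 5738 against 4752 and 3554, and Nfil3, a basic leucine zipper repressor, read 116 and 373 against 56.2 and 114. Ccnd1, cyclin D1, read 74.4 and 66.6 against 54.9 and 38.4 without passing. The median was -0.32. This list, like the others, was chosen with earlier results of these data known, so its counts are descriptions only. Whether each listed gene responds to STAT3 in these cells was not tested. Junb and Fos are also genes of the immediate early response, which many stimuli switch on.

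Genes known to respond to TGF-beta had the lowest median of the pathway lists, -0.58 over 14 genes above the limit (-0.49 with the One-Cycle and -0.66 with the 3' IVT Express kit). The list does not separate genes that TGF-beta raises from those it lowers, so its median is no measure of TGF-beta response. Whether each listed gene responds to TGF-beta in these cells was not tested. Of the 14, 10 read lower with both kits (30.5% of all genes), 5 were lower with the block (3.04%), namely Skil, Id2, Itgae, Klf10 and Tsc22d3, and 0 were higher (2.48%). Skil, listed above, also belongs here. Id2, an inhibitor of basic helix-loop-helix factors, read 148 and 196 on the CD11b-negative arrays and 103 and 113 on the CD11b-positive ones (log2 difference -0.64; limma adjusted p = 0.0465 with the block). Cdkn2b and Id1 read 57.1 and 72.3 against 39.9 and 35.5, and 67.9 and 61.4 against 47.3 and 33.4. Itgae, the integrin chain CD103 of intraepithelial T cells, read 235 and 96.0 against 93.98 and 64.4.

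**Figure D3:**
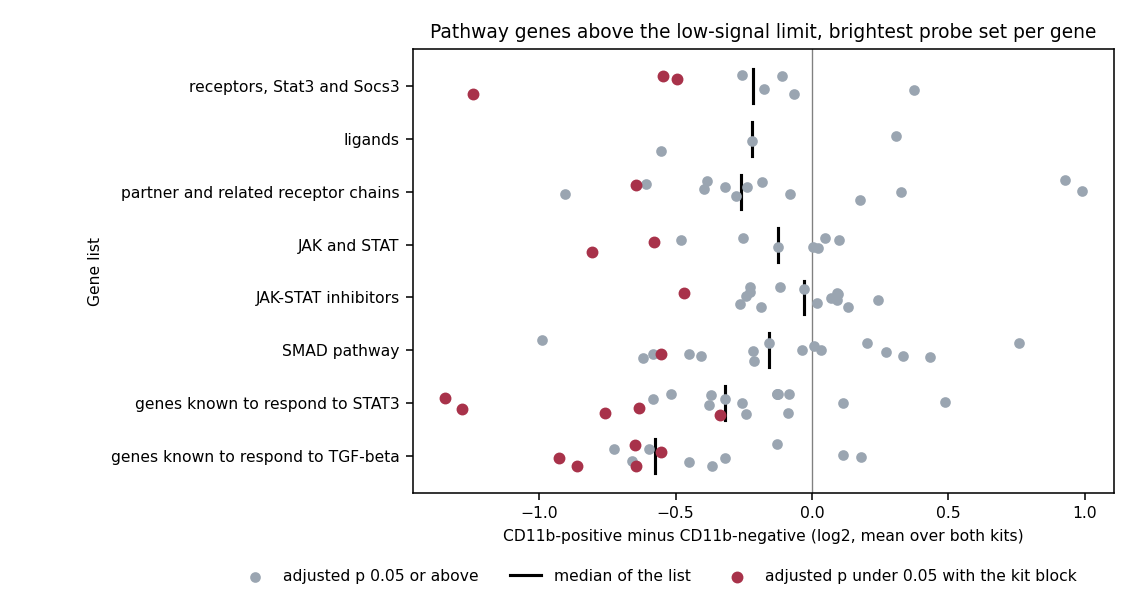
Log2 difference between CD11b-positive and CD11b-negative cells (mean over both kits) for each gene above the low-signal limit in 8 gene lists, with the list median as a black bar and genes with an adjusted p under 0.05 with the kit block in red. The medians run from -0.58 for genes known to respond to TGF-beta to -0.03 for JAK-STAT inhibitors, and every red point is below 0.

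Epithelial and lymphocyte markers also read lower in CD11b-positive cells, and macrophage markers read higher by their median. Of 16 epithelial markers, 16 were above the limit, 14 read lower with both kits and 12 were lower with the block. For these and the following marker lists, the shares over all genes were 30.5% lower with both kits, 3.04% lower with the block and 2.48% higher with the block. Their summed signal was 6269 and 6533 on the CD11b-negative arrays and 3416 and 2518 on the CD11b-positive ones, and none was at 0 (Lgr5 was weakest, between 7.14 and 17.7). Of 13 lymphocyte markers (T, NK and innate lymphoid cells) analysed, 11 were above the limit, all but Cd8b1 and Gata3. Of the 11, 8 read lower with both kits and 4 were lower with the block. The 13 summed to 5729 and 2207 against 2865 and 1522. Granulocyte and mast cell markers summed to 434 and 305 against 313 and 221, and 5 of 12, among them S100a8, S100a9 and Siglecf, were below the limit. Of this list 1 gene was lower with the block, Prg2, an eosinophil granule protein (log2 difference -1.43; limma adjusted p = 0.00239). Macrophage, monocyte and dendritic cell markers had a median log2 difference of 0.45 over 13 genes, with 1 higher and 1 lower with the block. Their sums, ruled by Cst3, were 3625 and 3896 against 2519 and 2749, with C1qa, Cx3cr1 and Mrc1 below the limit. Stromal and endothelial markers summed to 224 and 311 against 245 and 272, with Pdgfra, Pdgfrb and Vwf below the limit. Mature B cell markers summed to 2788 and 1252 against 3412 and 1712, and 1 of the 7, Cd74, was higher with the block (limma adjusted p = 0.00633). Of 13 plasma cell markers, 11 read lower with both kits and 3 with the block, with sums of 52551 and 52327 against 49196 and 48185. The part of any of these cell types in the lower readings of Il10rb, Stat3 and Socs3 was not tested. All list medians are relative to the bulk of the array: on the deposited signals, after taking off the median of 0.39 over all probe sets, the median was -0.49 for genes known to respond to TGF-beta, -0.29 for those known to respond to STAT3, -1.06 for epithelial, -0.60 for lymphocyte and 0.38 for macrophage markers. That of the mature B cell markers turned from 0.03 to -0.097.

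Of the 8 genes tested, those with the lowest and the highest difference on their brightest probe sets were Socs3 and Il6ra, and their array profiles were set against 12645 genes by the Euclidean distance of their log2 values, each centred on its own mean over the 4 arrays. Nearest to Socs3 were Sbno2, Dhx38 and Nfil3, at distances of 0.26, 0.33 and 0.37 log2 units. Sbno2, a transcriptional co-regulator, read 83.8 and 359 on the CD11b-negative arrays and 37.1 and 112 on the CD11b-positive ones. Dhx38, a helicase of the spliceosome, read 9.15 and 51.4 against 3.87 and 18.2, with both One-Cycle arrays below the low-signal limit of 9.51. Each has the Socs3 pattern of 1 high array, the CD11b-negative one of the 3' IVT Express kit. Nearest to Il6ra (1422270_a_at) were Slain2, A630001G21Rik and Zbtb44, at distances of 0.03 to 0.04. These are descriptions of likeness over 4 arrays only.

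**Figure D4:**
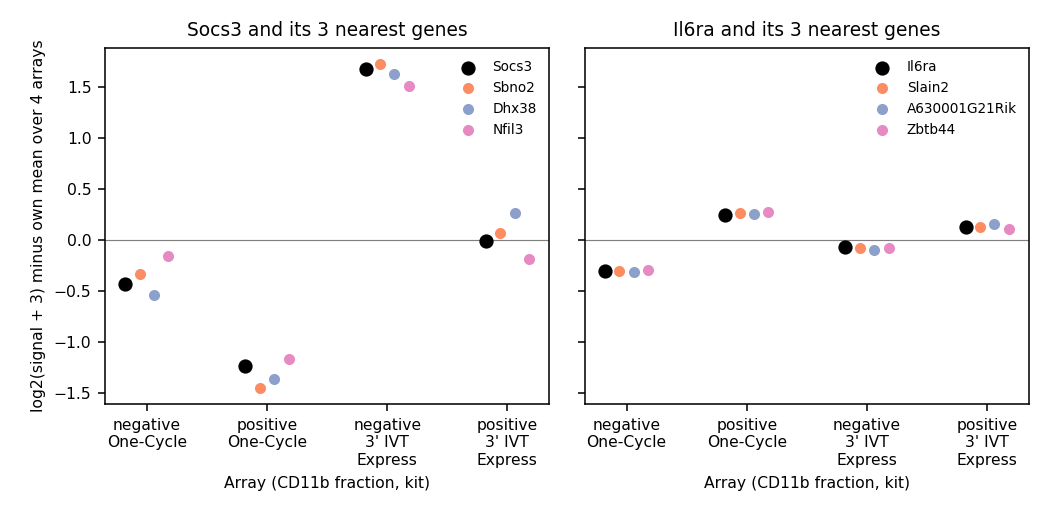
Log2(signal + 3) of Socs3 (left) and Il6ra (right), in black, and of the 3 genes with the nearest profile each, in colour, minus each gene's own mean over the 4 arrays, which are arranged by fraction and kit. For Socs3 and its neighbours the CD11b-negative 3' IVT Express array is the highest and the CD11b-positive One-Cycle array the lowest.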

How the data were processed

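The authors deposited 1 linear intensity per probe set. The submitters' processing notes name Affymetrix Expression Console and MAS5, and how these were set, in which version and to which scaling target is not given in the sources used here. The arrays were not on a common scale, so the 45037 non-control probe sets (64 controls left out) were quantile-normalized, and the scale was log2(signal + 3), on which differences of dim genes come out too small. The 27022 probe sets whose mean exceeded the 40th percentile, a signal of 9.51, were tested 2-sided by limma 3.58.1 (R 4.3.3; lmFit, then eBayes with its trend option), calling an adjusted p under 0.05 after Benjamini-Hochberg, without and with the labelling kit as a block. Probe sets name 1 gene for 34945, several for 932 and none for 9160; all 10 gene identifiers were found in the RefSeq table of assembly GRCm38.p6.

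The kit pairs the arrays per the labels' protocols, and deviations from the fraction means correlated between arrays of 1 kit (r = 0.422 across probe sets, which are not independent). The blocked fit has 1 residual degree of freedom and 16.03 prior degrees of freedom, so its p-values rest mostly on a variance pooled over probe sets. With 2 arrays a side the smallest exact permutation p is 0.333, and no such test is reported. The number of arrays limits precision. The model was tested on simulated data, with noise drawn at the spread that the blocked fit assumes. Whether that spread holds for these arrays was not tested by it. The 10 genes and all lists were chosen with earlier results of these data known. Named genes are the 10, up to 4 per pathway list by smallest p, and the 3 genes nearest in profile to the highest and lowest of the 8 tested; others were added after their values were seen. Alternatives were other pseudocounts, scalings, filters, units of the fit and priors, leaving out cross-hybridising probe sets, and leaving out each array; they were run for the counts of calls and the probe sets of the 10 genes, not for single genes of the lists. Scalings other than quantile were tested relative to the median difference over all probe sets.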

Additional observations from a re-analysis of the deposited data

How the results depend on the processing

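In the model without the kit block, the counts of 0 calls over all probe sets and 0 over the 21 of these genes were the same under every pseudocount, scaling, filter, unit of the fit and prior tried. On leaving out 1 array, the count over all ran from 0 to 3. With the replicate block by kit, 1234 probe sets and 4 of these genes' passed. Combined with the other settings, combinations chosen after seeing the data, the counts over all and over these genes were 1019 and 3 with a pseudocount of 1, 1456 and 5 with 12, 1109 and 2 on deposited signals, 1407 and 1 after median centring, 1482 and 5 after cyclic loess, 1139 and 1 with a common trimmed mean, 897 and 3 without the filter, 1051 and 3 with the filter at the 70th percentile, 996 and 3 with the brightest probe set per gene, 746 and 2 with the mean of a gene's probe sets, and 620 and 2 without those whose name marks probes shared between transcripts or genes (_a_at, _s_at, _x_at). Without the trend in the variance prior, 0 passed in either count. Over the blocked settings in which each was tested, Socs3 1455899_x_at passed in 11 of 12 (adjusted p from 1.99e-05 to 0.467), Il10rb 1419455_at in 9 of 13 (0.00156 to 0.470), Stat3 1460700_at in 7 of 11 (0.0152 to 0.477) and Stat3 1426587_a_at in 4 of 12 (0.0148 to 0.509). Each kept its negative sign in all of them.

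Signs turned under the following settings, with the same value with and without the block where both could be fitted. Relative to medians of 0.39, 0.19 and -0.06 over all probe sets, Tgfbr1 1420895_at was at 0.091, 0.078 and 0.062, and Il6st 1421239_at at -0.14, -0.12 and -0.094, on deposited signals, after median centring and with a common trimmed mean. With the mean of a gene's probe sets, Tgfbr1 was at 0.55, Tgfbr2 at 0.032, Il6ra at -0.34 and Il6st at 0.0059. On leaving out 1 array, the range was -0.46 to 0.32 for Tgfbr1 1420895_at, -0.44 to 0.088 for Tgfbr2 1426397_at, -0.25 to 0.73 for Tgfbr2 1425444_a_at, -2.27 to 0.16 for Il6ra 1452416_at, -0.43 to 0.067 for Il6st 1452843_at, -0.23 to 0.38 for Il6st 1421239_at, -0.76 to 0.54 for Il21r, -1.03 to 0.35 for Stat3 1424272_at, -2.03 to 0.25 for Socs3 1456212_x_at and -1.26 to 0.20 for Socs3 1416576_at. The fractions then no longer hold 1 array of each kit, so these ranges also contain the kit difference. The cause of the turns under the other settings was not tested. Signal near background limits Il10ra, Il5ra, Il21r and Il6ra.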
